A study of Mus musculus with 6 samples.

Results

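Potassium channel genes were examined in whole brain of mice labelled as a neuronal knockout of the RNA-binding protein HuR and of their controls. The members are the genes whose symbol begins with Kcn and which are read by a probeset annotated with exactly 1 gene symbol. For each gene the probeset with the highest mean of log2(intensity + 1) was taken. The rule gave 90 of the 22180 genes on the array, and 85 of these were among the 16635 genes bright enough to be tested. They comprise 36 pore-forming subunits of voltage-gated channels, 12 auxiliary subunits of those channels, 14 inward rectifiers, 13 two-pore channels, 9 genes of calcium-activated channels and 6 remaining symbols. The 5 members under the brightness limit were Kcne1, Kcnrg, Kcnu1, Kcnv2 and the antisense transcript Kcnd3os.

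RNA came from whole brain of mice aged 91 days and was read on 6 Affymetrix Mouse Gene 2.0 ST arrays, 1 per sample. The 3 controls, which the labels call WT, were Thy1Cre-ERT2-EYFPHuRf/+, and the 3 knockouts, called KO, were Thy1Cre-ERT2-EYFPHuRf/f. Every mouse therefore carried the tamoxifen-inducible Cre with its yellow fluorescent reporter and at least 1 floxed HuR allele, and every mouse received tamoxifen at 10 and 11 weeks of age. The Thy1 promoter drives the Cre in neurons, so glia and vessel cells should keep the gene, and the controls can lose 1 allele themselves. The labels give mice of either sex without naming the sex of a sample, and do not say which animal gave which sample. The p-values therefore reflect spread among samples, some of it possibly technical.

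Potassium channels let potassium ions leave or enter the cell and so hold the resting potential, end the action potential and set how often a neuron fires. Voltage-gated channels open on depolarisation and join several pore-forming subunits, inward rectifiers pass current best near rest, two-pore channels carry the background leak, and calcium-activated channels couple firing to calcium entry. Neurons hold most kinds, astrocytes clear extracellular potassium through inward rectifiers, and smooth muscle and choroid plexus have channels of their own.

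The 6 arrays had median intensities of 13.4 to 14.6. Control 3 and knockout 3 were unlike the remaining arrays. Xist, which coats and shuts off an X chromosome, had log2 levels of 7.69 and 7.68 on them and of 2.52 to 2.79 elsewhere. The labels do not name the sex of a sample, so a difference in sex cannot be told apart from array number. Cell type markers were set apart by the same numbers. The summed intensity of 8 neuronal markers was 15318 and 15280 on the arrays numbered 3 and 10044 to 10725 on the others, and that of 7 endothelial and pericyte markers was 714 and 768 against 335 to 397. The sum of 5 microglial markers was 532 and 493 against 670 to 730, and that of 6 astrocyte markers 3082 and 3259 against 3509 to 3894. Sums for 6 oligodendrocyte markers (2433 to 3113) and 6 choroid plexus markers (5362 to 6929) did not set the arrays numbered 3 apart, and 4 muscle and heart genes summed to no more than 102. No marker on these lists was at 0. Such sums follow the brightest genes of a list. The neuronal marker Snap25 had log2 levels of 12.4 on both arrays numbered 3 and of 11.45 to 11.57 on the others. Stmn2 had 10.84 and 10.86 against 10.69 to 10.78. The endothelial and pericyte list includes Kcnj8, itself a member. The targeted gene, Elavl1, had log2 levels of 8.27, 8.01 and 8.53 in controls and 8.22, 8.17 and 8.27 in knockouts. Its log2 fold change was -0.05 with a 95% interval from -0.39 to 0.29 (two-sided exact permutation p = 0.7, where 3 against 3 arrays allow none below 0.1). Its sign turned to 0.058 without both arrays numbered 3 and to 0.014 with arrays centred on their median, and it was 0.08 without control 3. The 1 probeset for Elavl1 has no stated position relative to the floxed exons, so it does not check the labels.

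No potassium channel gene passed the test between knockout and control brain. Of the 85 tested members, 0 were called in limma at a threshold of 0.05 after Benjamini-Hochberg adjustment, beside 0% of all 16635 genes, and 0 had an unadjusted p under 0.05, beside 1.70% of all genes. In 0 members did all knockout arrays lie above or all below the control arrays, where 5.70% of all genes had such groups (3.14% with knockout higher and 2.55% with knockout lower). With the replicate number as a block, which pairs same-numbered arrays, 0 members were again under an unadjusted p of 0.05, beside 4.85% of all genes, and 0 members and 0% of all genes passed the adjusted threshold. Log2 fold changes of members ran from -0.25 for Kcnk4 to 0.28 for Kcnh2, with a median of 0.019 and 47 values above and 38 below 0. The median over all genes tested was 0.013. All values below are differences of log2 levels, knockout minus control, where a level is log2(intensity + 1) after quantile normalization, unless a level on an array is named.

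The arrays bounded most of these values. The 95% confidence interval of the fold change lay within 1.5-fold in either direction for 61 of 85 members (71.8%), as it did for 80.6% of all genes tested. Within that limit were 20 of 35 voltage-gated pore-forming subunits, 10 of 11 auxiliary subunits, 13 of 14 inward rectifiers, 8 of 13 two-pore channels and 8 of 9 calcium-activated genes. These counts include genes near the brightness limit of 3.28. Mean log2 levels in controls and knockouts were 3.38 and 3.51 for Kcnj15 and 3.51 and 3.65 for Kcne3. They were 3.43 and 3.29 for Kcnk18 and 3.31 and 3.33 for Kcna10. At such levels a narrow interval does not bound a change in the transcript. The widest interval belonged to Kcna2, from 0.44-fold to 2.59-fold. These bounds take the arrays as unpaired. With the replicate block 81 of 85 members lay within 1.5-fold, and the SE of Kcna2 was 0.085 in place of 0.548. Whole brain mixes many cell types, and in such RNA fewer cells of a type and less RNA per cell cannot be told apart.

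**Figure D1:**
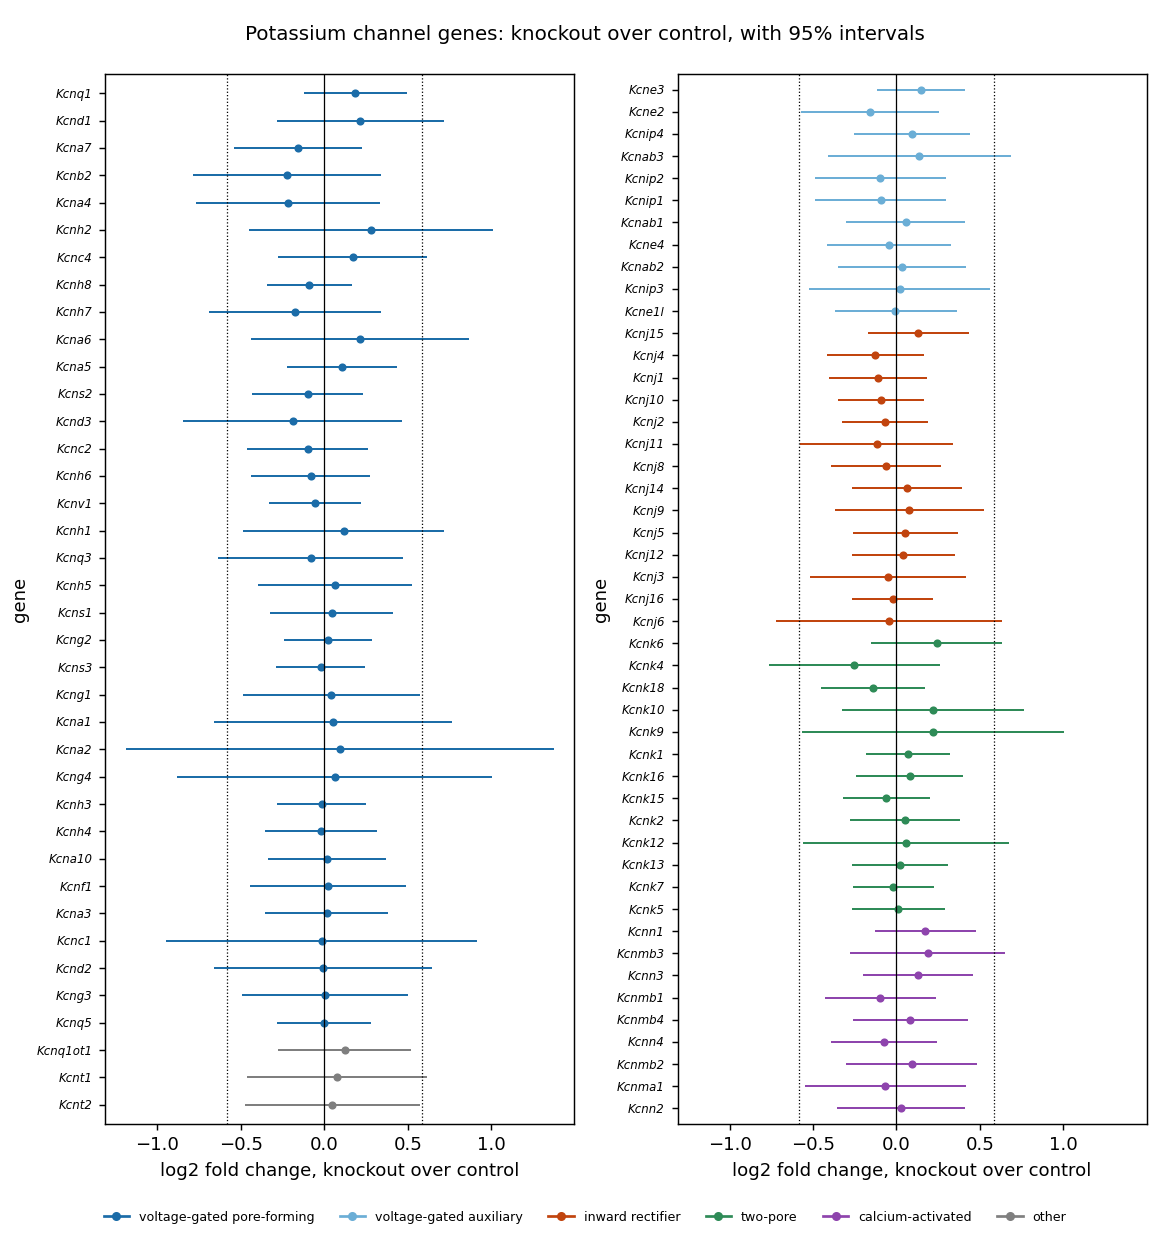
Log2 fold change of knockout over control for the 85 tested potassium channel genes, by family and by unadjusted p within a family. Points are limma estimates from 3 arrays per group, bars are 95% confidence intervals and dotted lines mark 1.5-fold; each interval crosses 0, and the widest, that of Kcna2, runs from -1.18 to 1.37.

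Among the 8 subunits of the Kcna family, some of which open at low voltages and sit on axons and their terminals, 6 had values above 0 (median 0.036). Kcna7, with mean log2 levels of 3.37 in controls and 3.21 in knockouts, and Kcna10, with 3.31 and 3.33, were near the brightness limit. Kcna1 and Kcna2 encode the subunits that flank the nodes of Ranvier on myelinated axons. Kcna1 had log2 levels of 8.31, 8.38 and 9.15 in controls and 8.33, 8.43 and 9.24 in knockouts. Kcna2 had 7.49, 7.39 and 9.06 in controls and 7.58, 7.56 and 9.08 in knockouts. In both genes the groups overlapped throughout, and array number 3 was the high one in each group. The log2 fold changes were 0.053 ± 0.30 for Kcna1 and 0.093 ± 0.55 for Kcna2 (SE), and the standard errors carry the distance of the arrays numbered 3. Between same-numbered arrays Kcna2 differed by 0.09, 0.17 and 0.03. Without both arrays numbered 3 the Kcna2 value was 0.13, without control 3 alone it was 0.63 and without knockout 3 alone it was -0.41.

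Kcna4, the subunit of a fast inactivating current in axon terminals, went the other way among arrays. Its levels were 8.12, 8.23 and 7.59 in controls and 8.07, 7.86 and 7.34 in knockouts, so that array 3 was the lowest of each group. The fold change of knockout over control was -0.22 ± 0.23 (SE) on the log2 scale, and the groups overlapped. It was -0.413 without control 3 and -0.009 without knockout 3. A dimmer probeset for Kcna4 had 6.96, 6.91 and 7.32 in controls and 7.07, 7.01 and 7.25 in knockouts, highest on the arrays numbered 3 and 0.047 higher in knockout, so the probesets of this gene disagree in both respects. Kcna6 had a value of 0.215, Kcna5 0.11, Kcna3 0.014, Kcna10 0.018 and Kcna7 -0.16. The Kcna6 value varied between same-numbered arrays, which the labels do not pair. Knockout was higher by 0.483 for number 2 and by 0.052 for number 3.

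The Kcnc and Kcnd families hold the channels of fast-spiking neurons and of the A-type current of dendrites. Kcnc1, which lets interneurons and cerebellar cells fire at high rates, had levels of 6.61, 6.19 and 7.57 in controls and 6.36, 6.52 and 7.43 in knockouts. Kcnd2, the main pore of the dendritic A-type current, had 9.35, 9.37 and 10.16 in controls and 9.4, 9.36 and 10.1 in knockouts. Both genes were again high on the arrays numbered 3, and their groups overlapped. Their log2 fold changes were -0.016 ± 0.40 and -0.007 ± 0.28 (SE). The sign of both turned with arrays centred on their median (0.048 and 0.033) and without both arrays numbered 3 (0.044 and 0.022). Kcnc2 had a value of -0.10, Kcnc4 0.17, Kcnd3 -0.19 and Kcnd1 0.215. Kcnd1 had 4.15, 4.23 and 4.85 in controls and 4.58, 4.41 and 4.88 in knockouts, and the knockout array was the higher at each array number. The Kcnd1 value was 0.436 without control 3, 0.308 without both arrays numbered 3, 0.088 without knockout 3 and 0.085 without control 1.

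**Figure D2:**
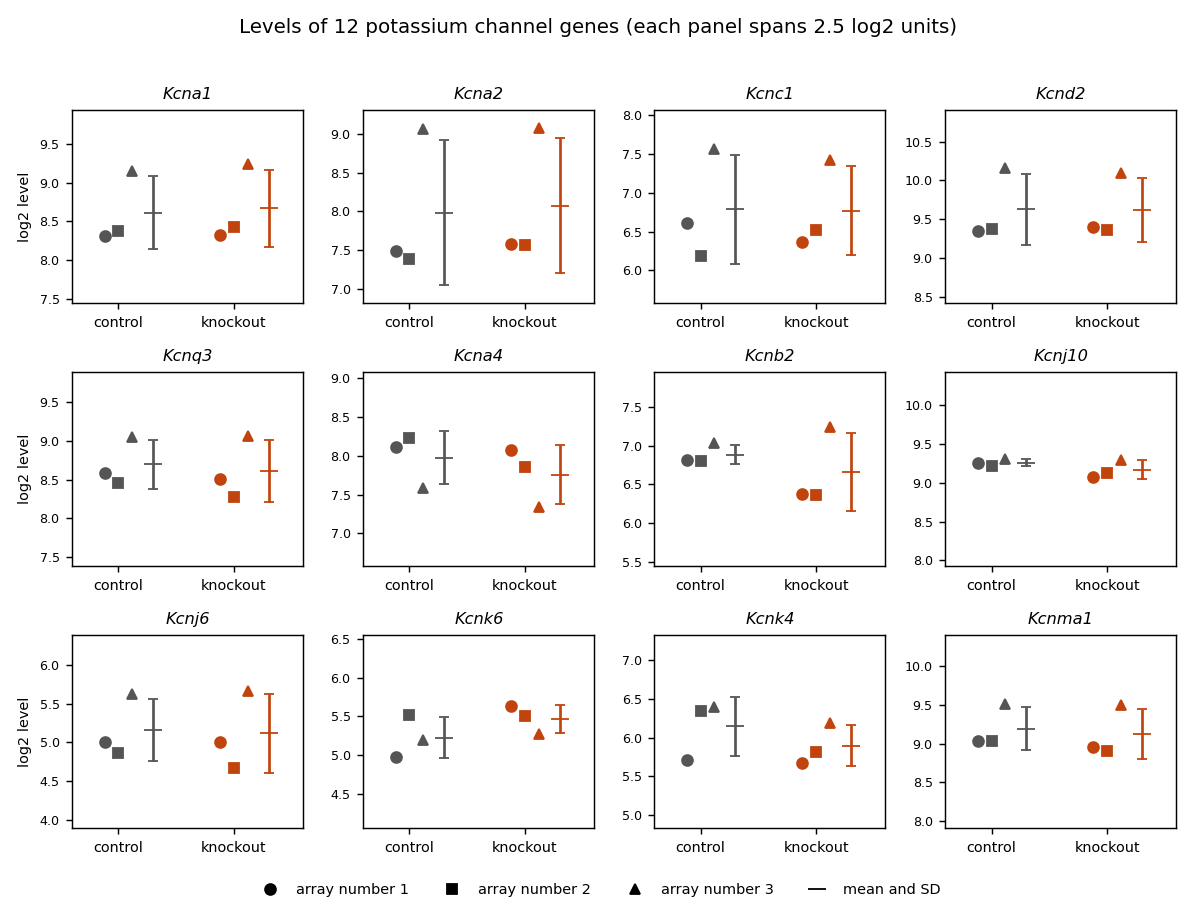
Log2 levels of 12 potassium channel genes on each array, with control arrays in grey and knockout arrays in orange; symbols give the array number and bars the mean and SD of 3 arrays. Triangles, the arrays numbered 3, are the highest of both groups in Kcna1, Kcna2, Kcnc1, Kcnd2, Kcnq3, Kcnb2, Kcnj10, Kcnj6, Kcnk4 and Kcnma1, and the lowest of both groups in Kcna4.

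Kcnb2, a delayed rectifier subunit that limits repetitive firing, was set differently by the arrays numbered 3 and the others. Its levels were 6.82, 6.8 and 7.03 in controls and 6.38, 6.36 and 7.24 in knockouts. Knockouts 1 and 2 lay below every control, and knockout 3 lay above every control. The log2 fold change was -0.22 ± 0.24 (SE) over all arrays, -0.443 without both arrays numbered 3 and -0.515 without knockout 3 alone. It was -0.083 without knockout 1, -0.073 without knockout 2 and -0.151 without control 3. Its unadjusted p in limma was 0.00563 without both (adjusted p = 0.932) and 0.00553 without knockout 3 (adjusted p = 0.999). Without both arrays numbered 3, Kcnb2, Kcnd1 and Kcnn3 were the 3 members (3.53%) under an unadjusted p of 0.05, beside 5.13% of all genes, and 31 members (36.5%) had groups that did not overlap, beside 34.7%. Kcnb2 was singled out after its values had been seen.

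Leaving out single arrays moved these counts with the background. Members under an unadjusted p of 0.05 in limma numbered 1 without control 1 (Kcnk4, beside 1.94% of all genes), 1 without control 2 (Kcnk6, beside 1.25%) and 2 without control 3 (Kcnd1 and Kcnh2, beside 3.45%). They numbered 0 without knockout 1 (1.11%), 0 without knockout 2 (0.980%) and 1 without knockout 3 (Kcnb2, beside 2.78%). Groups that did not overlap were found in 5, 5 and 18 members without controls 1, 2 and 3 (13.5%, 11.7% and 21.2% of all genes) and in 4, 2 and 12 without knockouts 1, 2 and 3 (11.3%, 11.0% and 18.0%). None passed the adjusted threshold in these fits.

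The Kcnq family makes the M-current, a slow current that muscarinic receptors shut off and that holds neurons back from bursting. Kcnq3 had levels of 8.59, 8.45 and 9.05 in controls and 8.51, 8.27 and 9.06 in knockouts. Its fold change was -0.082 ± 0.24 (SE) on the log2 scale, and Kcnq5 was at -0.001. Kcnq1, best known from heart and inner ear, had the smallest p of the voltage-gated pore-forming genes. It had 3.43, 3.57 and 3.72 in controls and 3.77, 3.6 and 3.92 in knockouts, a value of 0.19 ± 0.13 (SE; limma unadjusted p = 0.192, adjusted p = 1), with overlap between the groups and levels near the brightness limit of 3.28. In the ether-a-go-go family of 8 Kcnh genes, 3 values lay above 0 (median -0.017). Kcnh2, which encodes the channel that ends the cardiac action potential and also serves neurons, had 5.72, 6.3 and 6.95 in controls and 6.35, 6.47 and 7 in knockouts. Control 1 was the low array, and the value of 0.28 ± 0.31 (SE) was -0.019 without it, 0.595 without control 3 and 0.086 without knockout 3. The electrically silent subunits, which modify Kcnb channels, included the 4 Kcng genes at 0.005 to 0.062 and the 3 Kcns genes at -0.10 to 0.045.

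Auxiliary subunits of voltage-gated channels had 6 values above and 5 below 0, with a median of 0.019. The 3 cytoplasmic beta subunits, which bind Kcna channels and guide them to the axon, were at 0.056 for Kcnab1, 0.034 for Kcnab2 and 0.14 for Kcnab3. The 4 Kcnip genes encode calcium-binding proteins that attach to Kcnd channels, and their values ran from -0.096 for Kcnip2 to 0.094 for Kcnip4. Kcnip3 was at 0.019 and Kcnip1 at -0.095. Kcne3, a single-pass subunit, had 3.42, 3.47 and 3.64 in controls and 3.66, 3.72 and 3.58 in knockouts, a value of 0.145 ± 0.11 (SE). Kcne2, which is strong in choroid plexus, had 5.53, 5 and 4.88 in controls and 5.03, 4.93 and 4.98 in knockouts. Control 1 alone was high, and the Kcne2 value of -0.16 became 0.037 without it. The 6 choroid plexus markers, Kcne2 among them, had a median log2 fold change of 0.046.

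Inward rectifiers had the lowest family median, -0.047, with 5 values above and 9 below 0 and a range from -0.126 for Kcnj4 to 0.132 for Kcnj15. Kcnj10 is the rectifier through which astrocytes take up potassium. It had levels of 9.26, 9.22 and 9.31 in controls and 9.07, 9.13 and 9.3 in knockouts. Knockouts 1 and 2 lay below every control and knockout 3 among them. The fold change was -0.094 ± 0.11 (SE) on the log2 scale with an interval from 0.786-fold to 1.12-fold, and its partner Kcnj16 was at -0.022. The 6 astrocyte markers, none of them a channel, had a median difference of 0.08. The G protein-gated rectifiers slow firing when opioid, muscarinic or GABA-B receptors act. Of these Kcnj3 was at -0.050, Kcnj6 at -0.045 and Kcnj9 at 0.078. Kcnj6 had 5, 4.87 and 5.62 in controls and 5.01, 4.67 and 5.67 in knockouts, once more highest on array 3 of each group.

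The ATP-sensitive rectifiers close when energy is plentiful and pair with sulfonylurea receptors. Kcnj11, the neuronal pore, was at -0.12 ± 0.19 (SE), and Kcnj8, the pore of pericytes, at -0.064 ± 0.14 (SE). Their receptors Abcc8 and Abcc9 were at 0.002 and 0.031. Abcc9 was 5.19, 5.22 and 6.4 in controls and 5.52, 5.26 and 6.13 in knockouts, while Kcnj8 was 5.48, 5.18 and 5.44 in controls and 5.49, 5.28 and 5.13 in knockouts. Abcc9 was thus highest on both arrays numbered 3 and Kcnj8 was not, although both are pericyte genes. Kcnj15, Kcnj4 and Kcnj1, at -0.11, had the smallest p of the rectifiers, from 0.33 upward before adjustment in limma.

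Two-pore channels had 9 values above and 4 below 0 and a median of 0.052. Kcnk6 had the smallest p of all members (limma unadjusted p = 0.185, adjusted p = 1). It had levels of 4.97, 5.51 and 5.19 in controls and 5.63, 5.5 and 5.27 in knockouts, a value of 0.24 ± 0.17 (SE) that was 0.383 without control 2 and 0.117 without control 1. Kcnk4, a mechanically gated leak channel of neurons, had 5.71, 6.34 and 6.39 in controls and 5.67, 5.82 and 6.19 in knockouts. Each knockout array lay below its same-numbered control, but the labels do not pair these arrays and control 1 lay among the knockouts. The Kcnk4 value was -0.25 ± 0.22 (SE), with -0.471 without control 1, -0.155 without control 2, -0.130 without control 3, -0.141 without knockout 1 and -0.399 without knockout 3. Kcnk9, an acid-sensitive leak channel of cerebellar and motor neurons, had 6.44, 6.27 and 7.26 in controls and 6.47, 6.65 and 7.49 in knockouts. It was higher in each knockout than in its same-numbered control and highest on the arrays numbered 3, and its value was 0.22 ± 0.33 (SE). Kcnk2, gated by stretch and lipids, was at 0.052, Kcnk1 at 0.068, Kcnk10 at 0.22 and Kcnk18 at -0.14.

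Calcium-activated channel genes had the highest median of the channel families, 0.084, with 6 values above and 3 below 0. With 1 array left out the median ran from 0.027 to 0.106. That of auxiliary subunits ran from -0.053 to 0.168, so the highest place was not fixed either. Kcnma1 is the pore of the large-conductance channel that shortens the spike. It had levels of 9.03, 9.03 and 9.51 in controls and 8.96, 8.91 and 9.5 in knockouts, a value of -0.066 ± 0.20 (SE). Its neuronal partner Kcnmb4 was at 0.084 ± 0.14 (SE), Kcnmb3 at 0.19 and Kcnmb1, the smooth muscle partner, at -0.097. The small-conductance channels produce the slow pause after a spike. Of these, Kcnn1 was at 0.17 ± 0.13, Kcnn2 at 0.028 ± 0.16 and Kcnn3 at 0.13 ± 0.14 (SE). Kcnn3 had 6.33, 6.48 and 6.8 in controls and 6.72, 6.68 and 6.6 in knockouts, so that knockouts 1 and 2 lay above controls 1 and 2 and the order turned in the arrays numbered 3. Its value was 0.027 without control 1 and 0.260 without control 3, and that of Kcnmb3 was 0.002 without control 1 and 0.382 without control 2. The sodium-activated channels Kcnt1 and Kcnt2 were at 0.077 and 0.048, and the long non-coding transcript Kcnq1ot1, which is no channel, at 0.12.

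The spread between arrays of one genotype was larger than the difference between genotypes in many of these genes. In 45 of 85 members (52.9%) array number 3 was the highest of its group in both groups, beside 27.1% of all genes tested. In 7 members (8.24%) it was the lowest in both groups, beside 24.3% of all genes. The median of members was 0.24 higher on control 3 than on controls 1 and 2, and 0.21 higher on knockout 3 than on knockouts 1 and 2, where the medians over all genes were 0.016 and 0.004. The absolute difference had a median of 0.26 over members for array number, taken as the mean of both groups, and of 0.078 for genotype. Over all genes these medians were 0.17 and 0.075. Across the 85 members the difference of control 3 and that of knockout 3 had a Pearson r of 0.81, and across all genes tested 0.75. These are correlations across genes, which share the same 6 arrays and are not independent replicates. Of 8 neuronal markers 7 were highest of their group on both arrays numbered 3. So were 6 of 7 endothelial and pericyte markers, while 4 of 5 microglial and 4 of 6 astrocyte markers were lowest on both. Xist was also high on these arrays. The part of cell types or of sex in the channel values was not tested.

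**Figure D3:**
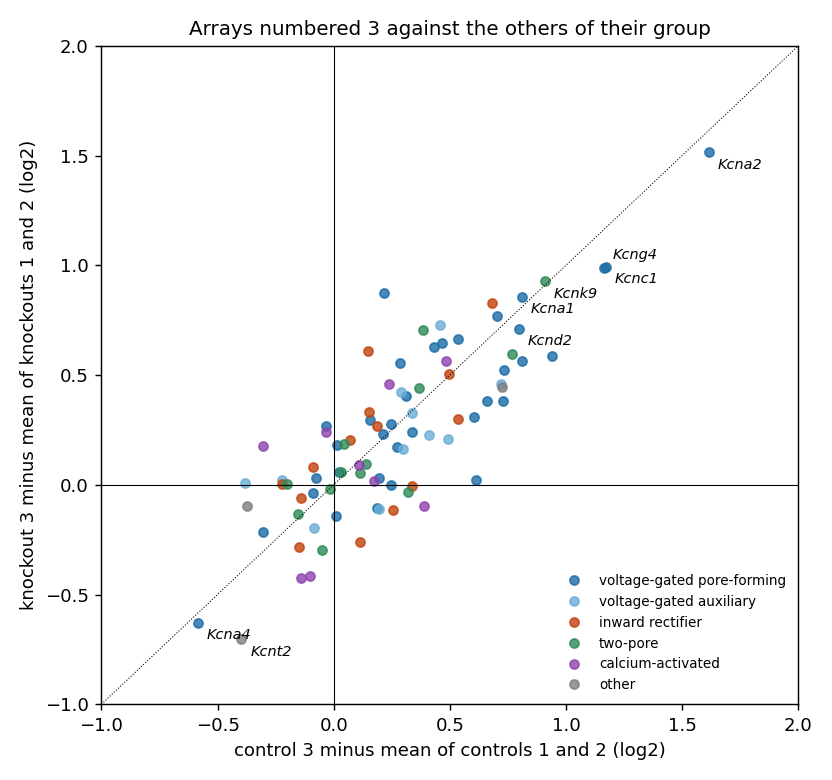
Difference of the array numbered 3 from the mean of the other arrays of its group, for 85 potassium channel genes, with controls on the horizontal and knockouts on the vertical axis (log2). Points lie along the dotted line of equal differences (r = 0.81), with Kcna2 at 1.62 and 1.515 the farthest above 0 and Kcna4 at -0.58 and -0.63 among the farthest below. The dimmer Kcna4 probeset, not shown, was highest on both arrays numbered 3.

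Array number 3 was highest in both groups for 23 of 35 voltage-gated pore-forming subunits, 7 of 11 auxiliary subunits, 6 of 14 inward rectifiers, 6 of 13 two-pore channels and 2 of 9 calcium-activated genes. All 3 Kcnc genes, all 3 Kcnd genes, all 3 Kcnab genes and all 4 Kcnip genes were among them, while the counts were 4 of 8 for Kcna, 3 of 4 for Kcng, 6 of 8 for Kcnh, 2 of 3 for Kcnq, 1 of 3 for Kcns, 0 of 4 for Kcne, 1 of 4 for Kcnmb and 0 of 4 for Kcnn. Of the Kcna genes 2 were lowest on both arrays numbered 3. Kcna2 was 3.07-fold higher on control 3 and 2.86-fold higher on knockout 3 than on the other arrays of the group. Kcnc1 was 2.25-fold and 1.99-fold higher, and Kcng4, a silent subunit, 2.24-fold and 1.99-fold. By the probeset used Kcna4 was 0.667-fold and 0.647-fold, though its dimmer probeset was highest on both arrays numbered 3. Kcnt2 was 0.759-fold and 0.614-fold. These genes were picked for their values on those arrays, so the folds are a description.

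Members that are neighbours on a chromosome were alike in this respect in some cases and unlike in others. Kcna5, Kcna1 and Kcna6 follow each other on chromosome 6, and Kcna3, Kcna2 and Kcna10 on chromosome 3, with no other protein-coding gene between them in RefSeq. The mean difference of the arrays numbered 3 was -0.26 for Kcna5, 0.83 for Kcna1 and 0.69 for Kcna6. It was 0.36 for Kcna3, 1.57 for Kcna2 and 0.12 for Kcna10. Of the rectifier neighbours on chromosome 16, Kcnj6 was at 0.75 and Kcnj15 at 0.072. Closer values were found for Kcnj5 and Kcnj1 on chromosome 9 (0.243 and 0.228) and for Kcnj16 and Kcnj2 on chromosome 11 (-0.005 and -0.101).

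**Figure D4:**
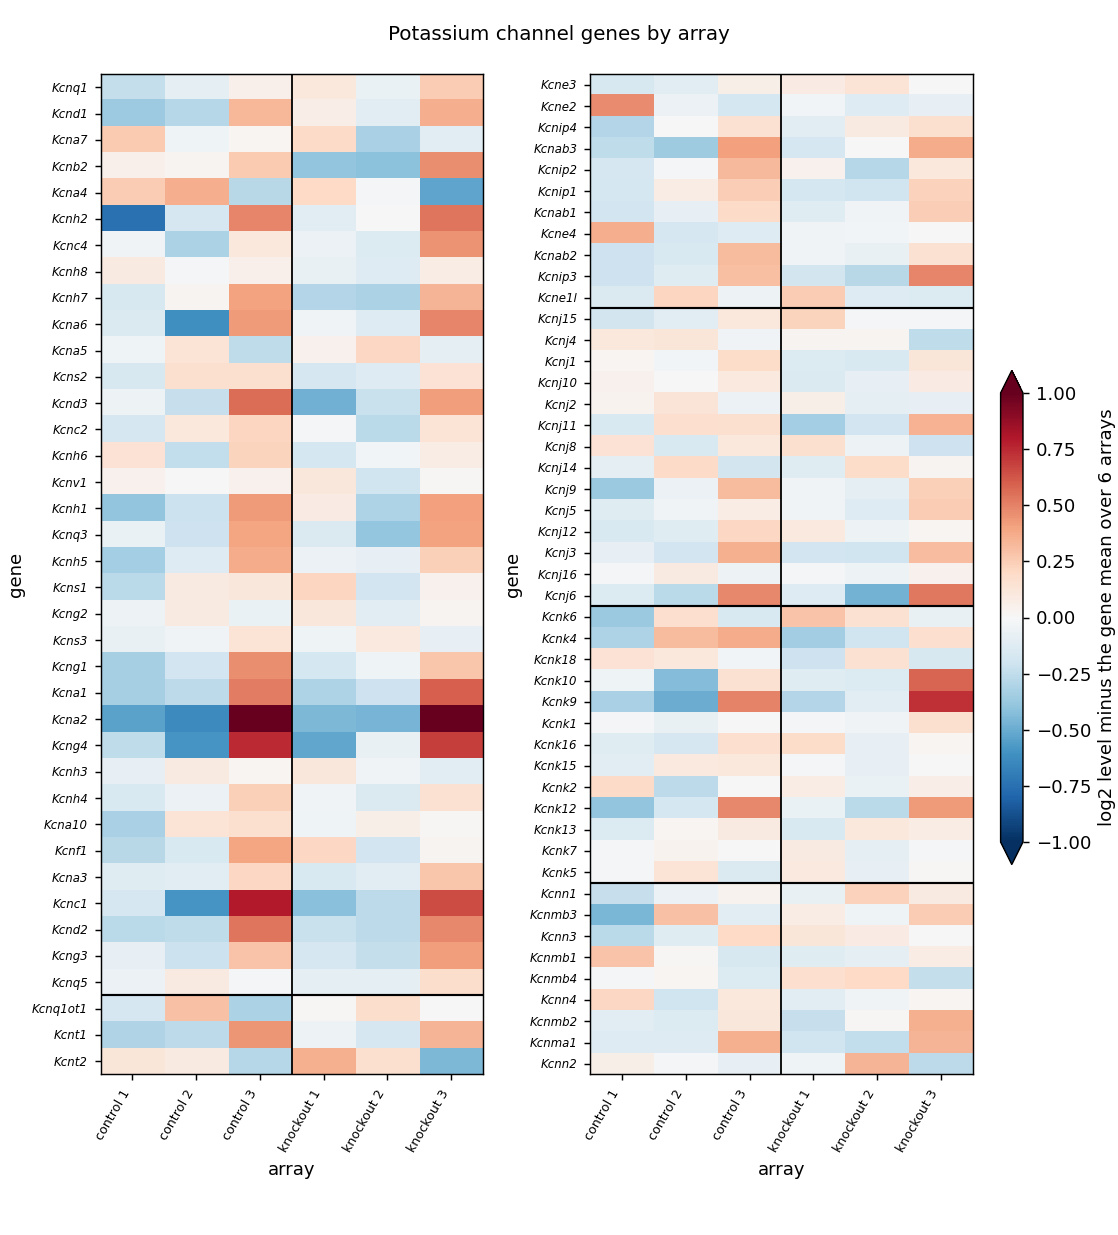
Log2 level of each tested potassium channel gene minus its mean over 6 arrays, by array; red is above and blue below the gene mean, a vertical line parts controls from knockouts and horizontal lines part the families. Red cells gather in the columns control 3 and knockout 3, where 45 of 85 genes have the highest value of both groups, and 0 genes part all knockouts from all controls.

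The sequences just before the start sites of the genes that differed most by array number are given to show how unlike they are. Of members with a single RefSeq promoter window these are the 3 highest and the 2 lowest by mean difference of the arrays numbered 3. Each run is the 150 bases that end right before the start site, 5′ to 3′ on the strand of the gene, from GRCm38.p6. Capitals mark GC boxes, GGGCGG or its reverse complement CCGCCC, to which Sp1-type factors can bind. The positions are chr3:107101417-107101566 (+) for Kcna2, chr7:46396318-46396467 (+) for Kcnc1, chr8:119635681-119635830 (-) for Kcng4, chr2:107290439-107290588 (+) for Kcna4 and chr1:140245568-140245717 (+) for Kcnt2.
Kcna2: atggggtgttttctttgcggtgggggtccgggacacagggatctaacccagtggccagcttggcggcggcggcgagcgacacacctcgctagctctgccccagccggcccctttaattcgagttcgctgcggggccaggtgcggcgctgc
Kcnc1: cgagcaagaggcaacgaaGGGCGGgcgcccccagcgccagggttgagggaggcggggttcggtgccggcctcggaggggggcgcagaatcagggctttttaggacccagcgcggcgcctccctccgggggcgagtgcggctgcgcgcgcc
Kcng4: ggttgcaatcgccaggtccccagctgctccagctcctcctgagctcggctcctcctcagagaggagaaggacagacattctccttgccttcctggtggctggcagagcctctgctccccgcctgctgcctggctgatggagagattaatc
Kcna4: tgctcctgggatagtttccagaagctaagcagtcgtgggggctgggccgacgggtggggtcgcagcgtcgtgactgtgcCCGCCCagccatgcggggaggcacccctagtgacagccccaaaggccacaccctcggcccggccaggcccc
Kcnt2: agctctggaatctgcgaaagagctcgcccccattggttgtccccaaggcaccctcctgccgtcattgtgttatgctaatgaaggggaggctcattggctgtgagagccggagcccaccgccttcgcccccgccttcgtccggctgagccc

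Kcnc1 and Kcna4, at opposite ends of the pattern by the probesets used, each hold 1 GC box in the bases shown. Kcna2, Kcng4 and Kcnt2 hold 0. In the full windows of 300 bases, CG dinucleotides numbered 31 for Kcna2, 41 for Kcnc1, 4 for Kcng4, 20 for Kcna4 and 12 for Kcnt2. RefSeq windows matched 68 of the 85 tested members by symbol, 93 windows in all. A GC box on either strand was present in 48.4% of these windows and in 35.7% of all 32851 promoter windows. The letters TATAAA, on either strand, were present in 4.3% of member windows and 13.6% of all, and the E-box CACGTG in 7.5% and 7.2%. The cyclic AMP element TGACGTCA was found in 0 of 93 member windows and in 1.8% of all windows. Median GC content was 58% over member windows and 52.7% over all. The windows shown hold none of the last 3 motifs. Such matches describe letters and not binding.

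Genes outside the Kcn symbols that carry, anchor or accompany these channels were likewise not called. Of 22 tested partners, 10 lay above and 12 below 0, with a median of -0.011, 0 under an unadjusted p of 0.05 in limma and 0 past the adjusted threshold. The smallest p values belonged to Lrrc52 (-0.15), Lrrc38 (-0.16) and Lrrc26 (-0.13), leucine-rich proteins that ease opening of large-conductance channels, and to the secreted axonal protein Lgi1 (-0.091). The leucine-rich genes were dim, beside a brightness limit of 3.28. Mean log2 levels in controls and knockouts were 3.42 and 3.26 for Lrrc52, 3.89 and 3.73 for Lrrc38, and 3.94 and 3.81 for Lrrc26. Dpp6, which speeds Kcnd2 currents, was at -0.027, and Cntnap2, which holds Kcna1 and Kcna2 beside the node, at 0.011. Dpp6 had levels of 8.7, 8.85 and 9.49 in controls and 8.78, 8.73 and 9.45 in knockouts, and Cntnap2 8.49, 8.58 and 9.14 against 8.56, 8.56 and 9.12. Both followed array number 3 as the channels named with them did. In 15 of 22 partners (68.2%) array 3 was highest in both groups, and in 2 it was lowest.

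A second probeset was present for 7 members. Besides Kcna4, the probeset not used gave log2 fold changes of 0.13 for Kcna6, -0.18 for Kcnab3, 0.26 for Kcnj3, 0.17 for Kcnma1, 0.12 for Kcnmb4 and 0.067 for Kcnq5. The sign was opposite to that of the probeset used in Kcna4, Kcnab3, Kcnj3, Kcnma1 and Kcnq5. The probesets not used for Kcnj3, Kcnma1, Kcnq5 and Kcnab3 had mean log2 levels of 3.81, 3.72, 3.47 and 3.99, near or below the array medians of 3.85 to 3.97 before normalization.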

How the data were processed

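The deposited table holds linear array intensities of 41340 probesets, which the authors made with MAS5, per the submitters' processing notes, with no version or scaling given. Of these, 23521 carry exactly 1 gene symbol in the platform annotation. Intensities were taken as log2(intensity + 1) and quantile normalized, since array medians differed by 0.119 on the log2 scale. The dimmest genes, below the 25th percentile of mean brightness (3.283), were dropped, which kept 16635. Knockout was compared with control in limma 3.58.1 (R 4.3.3), two-sided, with Benjamini-Hochberg adjustment over all genes tested, on 3 arrays per group, a number that limits the precision. The steps were run on simulated data with independent noise of a common SD. Such data lack the shared deviation of the arrays numbered 3, so that run does not show how the steps perform on these arrays.

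Same-numbered arrays deviated together from their group means, with correlations of 0.314, 0.367 and 0.752, each over the 0.1 needed to treat numbers as pairs, although control 1 with knockout 2 gave 0.401 and control 2 with knockout 1 gave 0.373. The replicate number as a block was therefore an alternative fit. Other alternatives changed the normalization, pseudocount, brightness limit, probeset rule, variance model and the arrays used.

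The members, gene lists and alternatives were chosen with earlier results of these data known. Genes named are Elavl1, up to 3 members per family with the smallest p, a list of well known brain channels and the 4 partners with the smallest p. Kcna3, Kcna4, Kcna5, Kcna6, Kcna10, Kcnb2, Kcnc2, Kcnc4, Kcnd3, Kcng4, Kcnh2, Kcnq5, Kcnk1, Kcnk10, Kcnk12, Kcnmb1, Kcnab1, Kcnab3, Kcnip1, Kcnip2, Kcnj9, Kcnj16, Abcc8, Abcc9, Dpp6 and Cntnap2 were added after their values were seen. Promoter sequences are RefSeq's, GRCm38.p6. All 90 members matched RefSeq by gene ID. No source used here gives the build of the array annotation.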

Additional observations from a re-analysis of the deposited data

How the results depend on the processing

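No member and no gene of the whole table passed the adjusted threshold in limma under any alternative run, and the smallest adjusted p over the 67 single genes was 0.932. With the replicate block the count of members with an interval within 1.5-fold was 81, the share of all genes under an unadjusted p of 0.05 was 4.85%, and the block changed no other call. Members whose groups did not overlap numbered 1 with values as deposited (5.76% of all genes), 1 without the brightness limit (6.79%) and 31 without both arrays numbered 3 (34.7%), and 2 to 18 when 1 array was left out. Members under an unadjusted p of 0.05 numbered 3 without both arrays numbered 3 and 0 to 2 with 1 array left out. With the dimmer genes left out (50th percentile), 39 of 62 members had an interval within 1.5-fold.

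Of 589 values of single genes under alternatives other than leaving out 1 array, 22 turned sign, and the cause was not tested. With values as deposited these were Kcnc1 0.013, Kcna10 -0.030, Kcnq5 0.015 and Kcnj16 0.012. With arrays centred on their median they were Elavl1 0.014, Kcnc1 0.048, Kcnd2 0.033, Kcnj3 0.014, Kcnq5 0.051, Kcnj16 0.048 and Dpp6 0.013. With a pseudocount of 16 Abcc8 was -0.004. With the mean of probesets they were Kcnj3 0.107, Kcnma1 0.050, Kcnq5 0.033 and Kcnab3 -0.023. Without both arrays numbered 3 they were Elavl1 0.058, Kcnc1 0.044, Kcnd2 0.022, Kcnip3 -0.070, Kcnj8 0.060 and Kcna3 -0.016. Elavl1 ran from -0.180 to 0.080 with 1 array left out. Leaving out 1 array in turn gave log2 fold changes of Kcne2 -0.286 to 0.037, Kcnip4 -0.03 to 0.193, Kcnq1ot1 -0.003 to 0.301, Kcnt1 -0.072 to 0.318, Kcnt2 -0.118 to 0.283 and Kcna1 -0.232 to 0.323. The same gave Kcna2 -0.412 to 0.632, Kcnc1 -0.346 to 0.375, Kcnd2 -0.244 to 0.259, Kcnq3 -0.303 to 0.097, Kcnab2 -0.061 to 0.199 and Kcnip3 -0.223 to 0.172. Ranges for further genes were Kcnj3 -0.219 to 0.116, Kcnj6 -0.321 to 0.182, Kcnj8 -0.16 to 0.023, Kcnj11 -0.321 to 0.019, Kcnk2 -0.068 to 0.161 and Kcnk9 -0.093 to 0.52. Next came Kcnma1 -0.253 to 0.095, Kcnn2 -0.137 to 0.166, Kcna3 -0.12 to 0.118, Kcna6 -0.038 to 0.485, Kcna10 -0.138 to 0.1 and Kcnc2 -0.209 to 0.01. There followed Kcnc4 -0.016 to 0.282, Kcnd3 -0.446 to 0.046, Kcng4 -0.268 to 0.45, Kcnh2 -0.019 to 0.595, Kcnq5 -0.09 to 0.043 and Kcnmb1 -0.199 to 0.021. Further values were Kcnk10 -0.017 to 0.347, Kcnab1 -0.053 to 0.168, Kcnab3 -0.017 to 0.377, Kcnip1 -0.236 to 0.002, Kcnip2 -0.206 to 0.041 and Kcnj9 -0.089 to 0.257. The last were Kcnk12 -0.141 to 0.314, Kcnj16 -0.053 to 0.018, Abcc8 -0.258 to 0.336, Abcc9 -0.216 to 0.431, Dpp6 -0.259 to 0.211 and Cntnap2 -0.175 to 0.212. Without a turn of sign, Kcnb2 ran from -0.515 to -0.073, Kcna4 from -0.413 to -0.009, Kcnk4 from -0.471 to -0.130, Kcnmb3 from 0.002 to 0.382 and Kcnn3 from 0.027 to 0.260. Median differences over all members ran from -0.053 to 0.094. With 3 arrays per group and no stated scaling of the deposited values, small differences cannot be resolved.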
